A study of Canis lupus familiaris with 7 samples.

Results

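Skeletal muscle contracts when a change in membrane voltage releases calcium from an internal store, and 10 genes of this excitation-contraction coupling were examined in canine bone and osteosarcoma (OSA). All 10 symbols were found among the 24580 genes listed, each once: *CACNA1S* and *CACNG1* of the voltage sensor, the release channels *RYR1* and *RYR3*, the calcium pumps *ATP2A1*, *ATP2A2* and *ATP2A3*, the store proteins *CASQ1* and *CASQ2*, and the junction protein *JPH1*. They were chosen by their role, with the tumor to non-tumor differences of calcium genes in these same samples already known, so their own differences between the groups are given as a description, and nothing is read from how many of them met the rule for a call. RNA came from 4 pieces of grossly non-malignant bone of dogs (N1, N3, N8 and N9), cut from beside the tumor, and from 3 pieces of OSA (T1, T3 and T10), taken at amputation or after euthanasia. Treatment, breed and age of these dogs are not given in the labels, and each sample is a piece of whole tissue with all its cell types. Levels are FPKM, fragments scaled to transcript length and library size, so that levels of different genes can be set side by side. The FPKM of all genes did not sum to the same total: from 539648 for N1 to 1752340 for N8, with N9 at 1310196 and T1 at 1119453. Levels are compared between samples without rescaling unless stated.

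In a muscle fiber the membrane folds inwards as T-tubules, where *CACNA1S* forms the voltage-sensing pore of the dihydropyridine receptor and *CACNG1* its gamma subunit. The sensor touches *RYR1*, the ryanodine receptor through which the sarcoplasmic reticulum lets its calcium out, and junctophilin 1, from *JPH1*, holds the membranes of tubule and reticulum together. Calsequestrins bind calcium inside the reticulum, *CASQ1* in skeletal muscle and *CASQ2* in the heart and in slow fibers. SERCA pumps carry the calcium back: *ATP2A1* is the pump of fast fibers, *ATP2A2* serves heart, slow fibers and, in another splice form, nearly all cells, and *ATP2A3* is known from platelets, lymphocytes and some epithelia and endothelia. *RYR3* is a ryanodine receptor found at low level in many tissues.

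Between 11995 and 12624 genes reached 1 FPKM in a sample. No read counts were analysed, and the steps between the lowest FPKM values gave only a relative depth: a given FPKM stood for 0.543 (N8) to 1.44 (T10) times as many fragments as in N1. The 21 pairs of samples matched these values only up to a factor of 2, so a relative depth may be off by that factor. A listed 0 can be a failed estimate, since *CKM*, the muscle creatine kinase, whose interval covers 4 listed genes, was at 0 for N9 but at 35044 FPKM for N8, while myoglobin (*MB*) was at 10049 FPKM for N9. Among the 10 genes, *CACNA1S* and *CASQ1* were listed at 0 in T3, *CACNG1* in T10 and *CASQ2* in N1.

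Muscle RNA was spread very unevenly over the non-tumor samples. The summed level of 29 listed genes of the skeletal muscle contractile apparatus and muscle regulators was 117545 FPKM for N8 and 102218 FPKM for N9, against 1948 FPKM for N3 and 219 FPKM for N1. Without *CKM* and *MYH1*, both listed at 0 for N9, it was 80472 FPKM for N8 and 102218 FPKM for N9, so the order of these samples turned. In OSA tumor it lay between 88.7 and 110 FPKM, of which *TPM3*, a tropomyosin that most cells use, made 59.7 FPKM for T1, 45.6 for T3 and 69.4 for T10, so the tumor sum is not a measure of muscle RNA. Of the list, 4 of 29 genes (*MYF6*, *MYOD1*, *MYOG* and *PAX7*) were listed at 0 in every tumor sample. Bone-forming cells went the other way: 7 listed osteoblast markers summed to 65.6 FPKM for N8 and 235 FPKM for N9, 784 FPKM for N3 and 6848 FPKM for N1, against 480 to 11261 FPKM in OSA tumor. N8 and N9 therefore held the most muscle RNA and the lowest osteoblast sums, although the label calls them bone. The collagen gene *COL1A2* made up most of the sum in all 7 samples, and single markers could go the other way: *BGLAP*, osteocalcin, was at 27.6 FPKM for N9 against 15.9 for T3 and 4.78 for T10. In such whole-tissue samples, fewer muscle fibers and less RNA per fiber cannot be told apart, and the part of muscle content in the differences below was not tested.

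**Figure D1:**
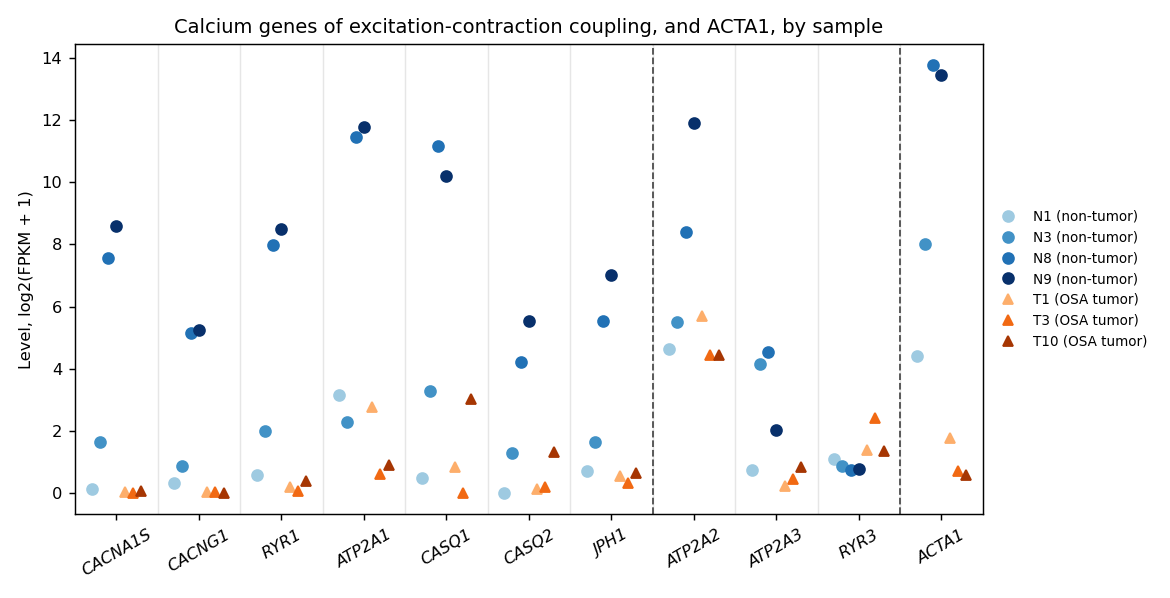
Level of each gene as log2(FPKM + 1), 1 point per sample, circles for the 4 non-tumor and triangles for the 3 OSA tumor samples; the dashed lines set apart the 7 muscle genes, the more widely expressed genes and *ACTA1*. N8 and N9 lie far above the other 5 samples in the muscle genes, while *ATP2A3* is highest in N8 and N3 and *RYR3* in T3.

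The voltage sensor was read almost only in N8 and N9. *CACNA1S* (ENSCAFG00000010884, CanFam3.1 chromosome 7 from 2108627 to 2172376) was at 0.0980 FPKM for N1, 2.10 for N3, 186 for N8 and 386 for N9, against 0.0209 for T1, 0 for T3 and 0.0337 for T10. The groups did not overlap, and N8 and N9 held 99.6% of the non-tumor sum. *CACNG1* (ENSCAFG00000011372, chromosome 9 from 13425028 to 13438284) was at 0.254 FPKM for N1, 0.844 for N3, 34.6 for N8 and 37.4 for N9, and at 0.0301 for T1, 0.0228 for T3 and 0 for T10. Here too every tumor sample lay below every non-tumor sample. Scaled by the relative depth, itself known only up to a factor of 2, T1 and T3 stood at the same smallest value. N1 was at 9.03 times and N3 at 40.0 times that value, so the tumor levels of *CACNG1* rest on very few fragments.

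The release channels behaved differently from each other. *RYR1* (ENSCAFG00000005896, chromosome 1, in an interval from 114444569 to 114602268 shared by 5 listed genes) was at 0.480 FPKM for N1, 3.01 for N3, 254 for N8 and 362 for N9. In OSA tumor it was at 0.152 for T1, 0.0376 for T3 and 0.317 for T10, below every non-tumor sample. The non-tumor samples thus differed among themselves by 754-fold, far more than N1 differed from the tumor samples. *RYR3* (ENSCAFG00000008056, chromosome 30 from 1178446 to 1491935) was at 1.12 FPKM for N1, 0.838 for N3, 0.675 for N8 and 0.698 for N9, and at 1.60 for T1, 4.28 for T3 and 1.55 for T10. Its groups also did not overlap, but in the other direction, and its non-tumor levels spanned only 1.66-fold, lowest in N8 and N9.

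Within the ryanodine receptors the leading gene changed from sample to sample. *RYR1* made up 99.7% of the summed FPKM of *RYR1*, *RYR2* and *RYR3* in N8 and 99.6% in N9, 67.3% in N3 and 14.3% in N1. In OSA tumor its share was 6.05% in T1, 0.699% in T3 and 8.70% in T10, and *RYR3* held 63.6%, 79.6% and 42.5%. *RYR2*, the heart form, which lies in an interval with 7 listed genes, was the largest in N1 (52.4%) and T10 (48.8%). Outside N8 and N9 these shares are parts of a small sum of 2.51 to 5.38 FPKM, so *RYR3* led in T1 and T3 at a low level. The inositol trisphosphate receptors *ITPR1*, *ITPR2* and *ITPR3*, release channels of most other cells, summed to 5.52 to 9.10 FPKM in all 7 samples. They exceeded the ryanodine receptors 1.59- to 3.48-fold in the 3 OSA samples, N1 and N3, and came to 0.0217 and 0.0250 times their sum in N8 and N9.

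Of the SERCA pumps, *ATP2A1* (ENSCAFG00000017254, chromosome 6, in an interval from 18384232 to 18413728 shared by 2 listed genes) was at 7.89 FPKM for N1, 3.87 for N3, 2823 for N8 and 3506 for N9. Its tumor levels were 5.84 FPKM for T1, 0.524 for T3 and 0.882 for T10, so the groups overlapped: T1 was above N3. *ATP2A2* (ENSCAFG00000008434, chromosome 26 from 8148566 to 8209392) was at 23.9 FPKM for N1, 44.5 for N3, 338 for N8 and 3843 for N9, against 50.8 for T1, 20.6 for T3 and 20.9 for T10. This pump was read at 20 FPKM or more in all 7 samples, and T1 exceeded both N1 and N3. *ATP2A3* (ENSCAFG00000013971, chromosome 9 from 47695765 to 47727453) was at 0.656 FPKM for N1, 16.7 for N3, 22.3 for N8 and 3.11 for N9, and at 0.170 for T1, 0.352 for T3 and 0.784 for T10. N3 and N8 stood out in this gene, N9 was well below them, and N1 fell within the tumor range.

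As a share of the summed SERCA level, *ATP2A2* was the main pump in all 3 tumor samples, with 89.4% in T1, 95.9% in T3 and 92.6% in T10. It also led in N1 with 73.7%, in N3 with 68.4% and, narrowly, in N9 with 52.3%. In N8 the order was the reverse, *ATP2A1* holding 88.7% and *ATP2A2* 10.6%. *ATP2A3* reached 25.6% in N3 and at most 3.48% elsewhere.

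**Figure D2:**
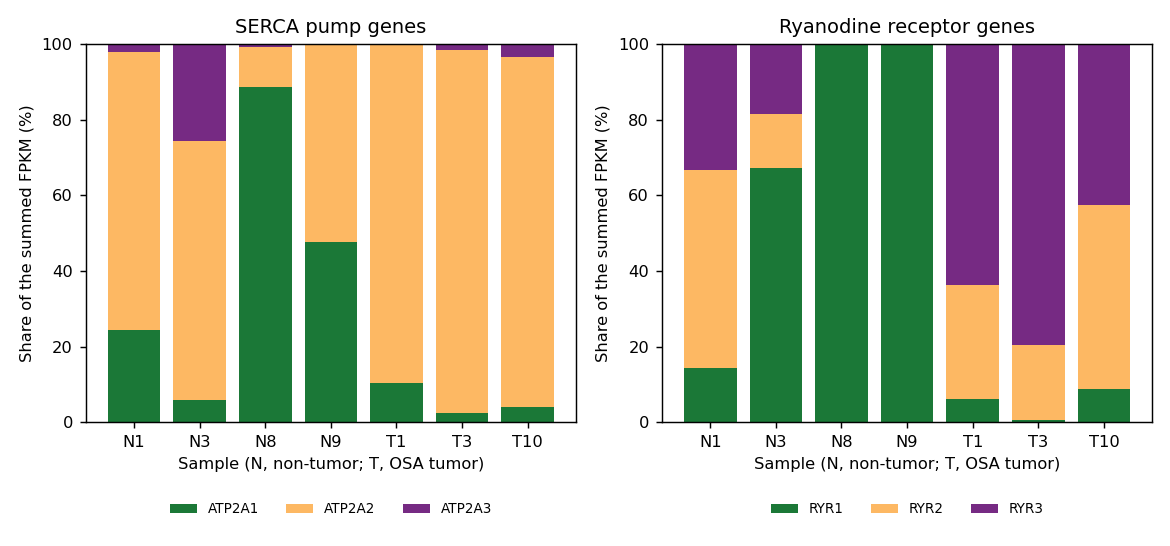
Share (%) of each gene in the summed FPKM of the SERCA pump genes (left) and of the ryanodine receptor genes (right), 1 bar per sample. *ATP2A2* fills 89.4% to 95.9% of the SERCA bar in OSA tumor, and *RYR1* 0.699% to 8.70% of the ryanodine receptor bar there against over 99% in N8 and N9.

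The store proteins overlapped between the groups. *CASQ1* (ENSCAFG00000012470, chromosome 38, in an interval from 21878681 to 22051535 spanning 8 listed genes) was at 0.398 FPKM for N1, 8.64 for N3, 2316 for N8 and 1185 for N9, against 0.790 for T1, 0 for T3 and 7.05 for T10. *CASQ2* (ENSCAFG00000009765, chromosome 17 from 53235183 to 53299193) was at 0 FPKM for N1, 1.46 for N3, 17.8 for N8 and 45.2 for N9, and at 0.0923 for T1, 0.140 for T3 and 1.51 for T10. In both genes N1 and T10 blur the groups, N1 being as low as a tumor sample and T10 close to N3. *JPH1* (ENSCAFG00000008170, chromosome 29 from 22701378 to 22785945) was at 0.630 FPKM for N1, 2.08 for N3, 45.9 for N8 and 128 for N9, and at 0.454 for T1, 0.253 for T3 and 0.576 for T10, without overlap. The margin was narrow, N1 lying just above T10.

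The muscle genes are, by their known role, *CACNA1S*, *CACNG1*, *RYR1*, *ATP2A1*, *CASQ1*, *CASQ2* and *JPH1*. In N8 and N9 each of them was above every tumor sample, in N1 all but *CASQ1* and *CASQ2*, and in N3 all but *ATP2A1* and *CASQ2*. The genes were chosen with this contrast known, and the share of all genes above every tumor sample was not computed, so nothing is read from this. N8 and N9 together held between 97.7% and 99.8% of the non-tumor sum in the 7 genes and 98.4% in *ATP2A2*, against 59.5% in *ATP2A3* and 41.2% in *RYR3*.

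Group means and differences follow from this spread. The mean of *RYR1* was 155 ± 182 FPKM (SD, n = 4) for bone against 0.169 ± 0.141 FPKM (SD, n = 3) for OSA, *ATP2A1* at 1585 ± 1845 against 2.41 ± 2.97, and *CACNA1S* at 144 ± 184 against 0.0182 ± 0.0170 FPKM. In each of these the non-tumor SD was larger than the mean. *ATP2A2* was at 1062 ± 1859 against 30.8 ± 17.4 FPKM, *ATP2A3* at 10.7 ± 10.5 against 0.435 ± 0.315 FPKM, and *RYR3* at 0.832 ± 0.204 against 2.48 ± 1.57 FPKM. On the log2(FPKM + 1) scale, which understates the difference of genes near 0, limma gave a log2 fold change of tumor against non-tumor of -5.74 (standard error 2.30) for *ATP2A1*, -5.00 (2.36) for *CASQ1*, -4.55 (1.81) for *RYR1* and -4.45 (1.87) for *CACNA1S*. The values were -3.22 (1.38) for *JPH1*, -2.88 (1.23) for *CACNG1*, -2.75 (1.50) for *ATP2A2*, -2.36 (0.895) for *ATP2A3* and -2.22 (1.21) for *CASQ2*. *RYR3* alone was positive, at 0.84 (0.502). *ACTA1*, skeletal muscle actin, was at -8.88 (2.01). The median over the 7 muscle genes was -4.45, which is -1.70 from the value of *ATP2A2*, and over all 10 genes it was -3.05, beside -0.02 for the 13507 genes tested.

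A gene was called at a fold change of 2 or more with an unadjusted p under 0.05 by limma. This was met by 926 genes (6.86% of those tested), 483 lower in OSA tumor (3.58%) and 443 higher (3.28%). Lower genes were 52.2% of these calls, and 64.4% when all samples were brought to 1 common sum. That rescaling moved the median over all genes from -0.02 to 0.125 (log2) and called 8 of the 10 genes, beside 775 of all genes. None of the 926 genes had an adjusted p under 0.05: the count was 0 by limma with Benjamini-Hochberg adjustment, 927 genes having an unadjusted p under 0.05. Of the 10 genes, 6 were called, all lower: *CACNA1S*, *CACNG1*, *RYR1*, *ATP2A1*, *ATP2A3* and *JPH1*. All 10 passed the filter of a mean of 1 FPKM, but *CACNA1S*, *CACNG1*, *RYR1*, *ATP2A3*, *CASQ2* and *JPH1* had a tumor mean under that level and so passed by their non-tumor levels. The groups did not overlap in 5 of the 10 genes (*CACNA1S*, *CACNG1*, *RYR1*, *JPH1* and *RYR3*), beside 5.85% of all genes tested. Since this contrast was known when the genes were chosen, nothing is read from these counts. They also moved with single samples, as did the calls over all genes. Of the 10 genes, 9 were called without N1, *ATP2A3* alone without N9, and 0 without N8, T1, T3 or T10. Over all genes 1997 were called without N1, 687 without N9 and 319 without N8. The fits without T1, T3 and T10 called 1214, 603 and 424. The labels call the bone matched and adjacent, without saying that a shared sample number marks 1 dog. With that number as a block, 0 of the 10 genes were called over the samples numbered 1 and 3, beside 241 of all genes. With a random block over all 7 samples 2 were called (*RYR1* and *ATP2A3*), beside 1062 of all genes. With a pseudocount of 0.1 the log2 fold change was -6.83 for *CACNA1S*, -5.29 for *CACNG1* and 1.33 for *RYR3*. Without N9 that of *ATP2A2* was -1.32, of *JPH1* -2.12 and of *CASQ2* -1.29, and without T3 that of *RYR3* was 0.50.

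With N8 and N9 both left out, an alternative chosen after seeing the data, 0 of the 10 genes were called, beside 1.36% of all genes tested. The log2 fold changes of the muscle genes then lay between -1.29 for *ATP2A1* and -0.10 for *CASQ2*, with *RYR1* at -1.07 (standard error 0.503) and *CACNA1S* at -0.86 (0.484). *ATP2A2* was at -0.21 (0.617), close to 0. *ATP2A3* was at -1.94 (0.994) and *RYR3* at 0.73 (0.539), both near their values with all 7 samples. *ACTA1* was still at -5.18 (1.13), as N1 and N3 hold 20.0 and 255 FPKM of it. The median over the 10 genes was -0.63.

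**Figure D3:**
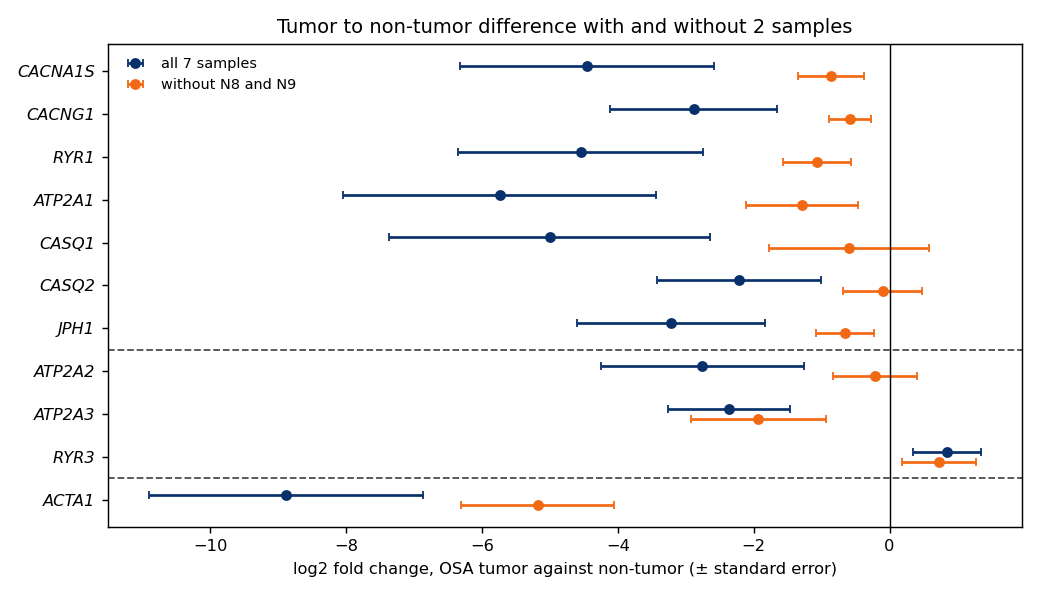
log2 fold change of OSA tumor against non-tumor on the log2(FPKM + 1) scale, with the standard error from limma, for all 7 samples and without N8 and N9. The muscle genes and *ATP2A2* move towards 0 without these samples (*RYR1* from -4.55 to -1.07), while *ATP2A3* (-2.36 to -1.94) and *RYR3* (0.84 to 0.73) move little.

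*ACTA1* (ENSCAFG00000008253, chromosome 4 from 9812782 to 9815574) served as the yardstick of muscle RNA. It was at 20.0 FPKM for N1, 255 for N3, 13913 for N8 and 11146 for N9, and at 2.41 for T1, 0.623 for T3 and 0.497 for T10. Over the 7 samples, Pearson r with *ACTA1* on the log2(FPKM + 1) scale was 0.951 for *RYR1*, 0.882 to 0.942 for the other 6 muscle genes, 0.852 for *ATP2A2*, 0.783 for *ATP2A3* and -0.763 for *RYR3*. The points share the groups and the muscle content of N8 and N9, so these values are a description, and each gene was also set against *ACTA1* within the sample. *RYR1* came to 24.0 FPKM per 1000 FPKM of *ACTA1* in N1, 11.8 for N3, 18.3 for N8 and 32.5 for N9. Its ratio to *ACTA1* thus spanned 2.745-fold over the non-tumor samples, where its level spanned 754-fold; without N3 the ratio spanned 1.78-fold. *CACNG1* (5.10-fold), *CACNA1S* (7.07-fold), *CASQ1* (8.37-fold) and *JPH1* (9.54-fold) also kept within 1 order of magnitude, and *CASQ2* spanned 4.50-fold over the 3 samples where it was above 0. *ATP2A1* did not: it came to 394 for N1, 203 for N8 and 315 for N9 but to 15.2 per 1000 FPKM of *ACTA1* in N3.

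The ratios of the more widely expressed genes spanned a wider range. *ATP2A2* came to 1195 FPKM per 1000 FPKM of *ACTA1* in N1, 175 for N3, 24.3 for N8 and 345 for N9, and *RYR3* to 55.9 for N1, 3.29 for N3, 0.0485 for N8 and 0.0626 for N9. The ratio of *RYR3* therefore spanned 1152-fold while its level spanned 1.66-fold. *ATP2A3* was at 65.4 per 1000 FPKM of *ACTA1* in N3 and 0.279 for N9. In OSA tumor all ratios rest on *ACTA1* levels of 0.497 to 2.41 FPKM. *RYR1* came to 63.1 per 1000 FPKM of *ACTA1* in T1, 60.4 for T3 and 638 for T10 there, and *ATP2A2* to 21099 for T1, 33166 for T3 and 42016 for T10. The lowest tumor ratio was 17.7 times the highest non-tumor ratio in *ATP2A2*, 11.9 times in *RYR3*, 6.67 times in *CASQ2*, 6 times in *JPH1*, 2.14 times in *ATP2A1*, 1.86 times in *RYR1* and 1.08 times in *ATP2A3*. *CACNA1S*, *CACNG1* and *CASQ1* were listed at 0 in a tumor sample, and their other tumor ratios were above the highest non-tumor ratio except in T1 for *CACNA1S* and *CACNG1*. *CACNA1S* came to 8.67 in T1 and 67.9 in T10 against at most 34.6 in non-tumor, and *CACNG1* to 12.5 in T1 and 36.6 in T3 against at most 12.7. *CASQ1* came to 328 in T1 and 14191 in T10 against at most 166.5.

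**Figure D4:**
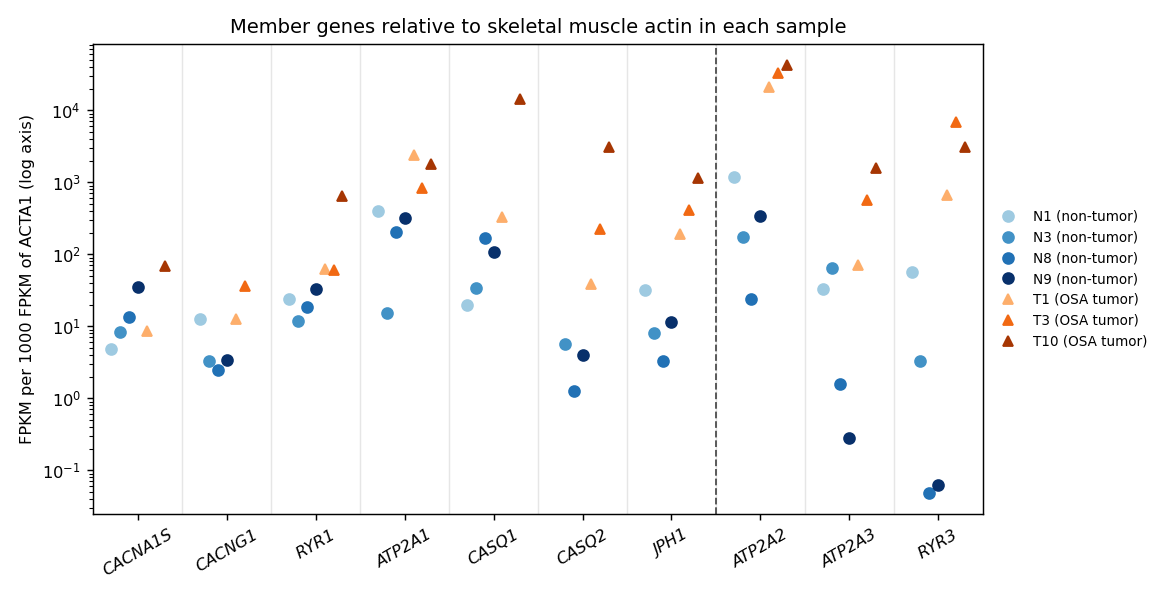
FPKM of each gene per 1000 FPKM of *ACTA1* in the same sample, on a log axis, 1 point per sample; values listed at 0 are left out. The 4 non-tumor points of *RYR1* lie between 11.8 and 32.5, whereas those of *RYR3* run from 0.0485 to 55.9.

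N8 and N9 had like amounts of muscle RNA but not the same calcium genes. *ACTA1* in N9 was 0.801 times its level in N8, and *CACNG1* was 1.08 times, *ATP2A1* 1.24 times and *RYR1* 1.42 times as high. *ATP2A2* was 11.4 times as high in N9, *JPH1* 2.79 times, *CASQ2* 2.55 times and *CACNA1S* 2.07 times, whereas *CASQ1* was at 0.511 times its N8 level. Of the more widely expressed genes, *RYR3* was at 1.03 times and *ATP2A3* at 0.14 times its N8 level. Set beside these, 6 contractile genes of slow fibers (*MYH7*, *TNNT1*, *TNNC1*, *TNNI1*, *MYL2* and *MYL3*) were 2.11 to 5.91 times as high in N9, with a median of 2.68, and 6 of fast fibers (*TNNT3*, *TNNC2*, *TNNI2*, *MYLPF*, *MYBPC2* and *MYL1*) 0.569 to 1.26 times, with a median of 1.03. The fast myosin *MYH1*, at 2028 FPKM for N8 and listed at 0 for N9, was not among these 6, while the slow *MYH7* was among the others. This split by fiber type was made after the values were seen. It compares 2 samples without replicates, and no test was made.

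*ATP2A3* stood next to blood cell genes rather than muscle genes. The summed level of 7 B lymphocyte markers was 186 FPKM for N3 and 73.8 FPKM for N8, and 2.58 to 6.63 FPKM in the other 5 samples; *PAX5*, which marks the B lineage, was at 0 in all of these but N3 and N8. That of 6 listed megakaryocyte and platelet markers was 168 FPKM for N8 and 98.7 FPKM for N3, against 9.21 to 53.3 FPKM elsewhere. Single markers of this list went another way. *TUBB1* was highest in N9, at 45.8 FPKM against 33.5 for N8 and 20.6 for N3, and *PPBP* was at 25.4 FPKM for T10 against 4.91 for N9. By Pearson correlation of log2(FPKM + 1) over the 7 samples, the 3 named genes most like *ATP2A3* were *RH30* (r = 0.996), *KLF1* (0.995), the transcription factor of red cell precursors, and *RETN* (0.994). *KLF1* was at 30.3 FPKM for N3 and 41.4 for N8, 2.51 for N9 and under 0.5 in the other 4 samples. The part of blood cell content in the level of *ATP2A3* was not tested.

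The genes nearest to *RYR1* by the same measure were muscle genes, *HHATL*, *CACNA1S* and *CKMT2*, the mitochondrial creatine kinase of muscle, each with r = 0.999. Among the genes nearest to *ATP2A1* were *RAPGEF1* (0.996) and *PLCD4* (0.995), and *ATP2A2* was nearest to *MTFR1L* (0.998), *PRKACA* (0.996), the catalytic subunit of protein kinase A, and *ACAD10* (0.996). *RYR3* was nearest to *PSENEN* (0.995), *DDIT3* (0.990), which encodes the stress factor CHOP, and *HSPA4L* (0.989). These were high in T3: *DDIT3* was at 54.7 FPKM for T3 and at most 9.78 FPKM in any other sample, and *HSPA4L* at 49.5 against at most 8.81 FPKM. All 7 points are shared by every gene, so these values are a description without a p.

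The wider machinery was read through 64 symbols in 6 lists, written by role, of which 58 were listed and 50 tested. By limma's rule 5 were lower in OSA tumor and 1 was higher, beside 3.58% and 3.28% of all genes tested, and 0 had an adjusted p under 0.05, that of each called gene being 0.693 by limma. The median log2 fold change of the 50 was -0.89. Some of the 50 had a tumor mean under 1 FPKM and passed the filter by their non-tumor levels, so nothing is read from this median. Of 8 tested genes of the release channel and reticulum partners, 3 were called lower: *TRDN*, triadin, which ties *RYR1* to calsequestrin (log2 fold change -4.75, standard error 1.74), *HRC*, a calcium-binding protein of the reticulum (-4.61, 1.85), and *TMEM38A*, a potassium channel of the reticulum (-3.51, 1.37). *TRDN* was at 0.0975 FPKM for N1, 9.40 for N3, 113 for N8 and 537 for N9, and at 0.0433 to 0.130 FPKM in OSA tumor, T3 above N1. *TRDN* and *HRC* had a tumor mean under 1 FPKM and passed the filter by their non-tumor levels. *FKBP1B*, which encodes a small protein bound to ryanodine receptors, rose (2.31, standard error 0.630). It was at 3.26 FPKM for N1, 1.92 for N3, 2.80 for N8 and 1.89 for N9, against 5.87 for T1, 41.6 for T3 and 15.7 for T10, so all tumor samples were above all non-tumor samples. Its log2 fold change was 1.65 without T3 and 2.27 without N8 and N9. In N1, N3, T1 and T3 alone, blocked by sample number, *FKBP1B* was at 2.28 (standard error 0.944) and no longer called. The genes called lower moved towards 0 without N8 and N9, *TRDN* to -1.65, *HRC* to -1.11, *TMEM38A* to -1.21, *CAV3* to -1.19 and *STAC3*, a voltage sensor partner, to -0.79.

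Of 8 tested voltage sensor partners, *STAC3*, an adaptor of the sensor, was called lower (log2 fold change -3.21, standard error 1.39), T3 being above N1 and N3. With the sample number as a random block *STAC3* was at -2.15 (1.19) and *HRC* at -3.38 (1.54), neither called. In N1, N3, T1 and T3 alone, blocked by that number, *STAC3* was at -0.12 (0.480), and no gene of the 6 lists was called. The beta subunit *CACNB1* was at -2.34 with all samples, without a call. Among 7 genes of junction and T-tubule, *CAV3*, the caveolin of muscle, was called lower (log2 fold change -4.07, standard error 1.52), also with a tumor mean under 1 FPKM, while *JPH2* was at -2.03. *JPH2*, *SYPL2* and *SPEG* likewise passed the filter by their non-tumor levels. The 7 tested genes of sarcolemma excitability, among them the sodium channel *SCN4A* at -3.09 and the chloride channel *CLCN1* at -1.85, gave 0 calls and were all negative. *SCN4A*, *CLCN1*, *KCNA7*, *CHRNA1* and *CHRND* had a tumor mean under 1 FPKM and passed the filter by their non-tumor levels, so nothing is read from these signs. Of the pump regulators and cytosolic buffers, 4 genes were tested and 0 called; the SERCA inhibitor *PLN* was at 0 for N1, N3, T3 and T10, 56.3 FPKM for N8, 40.3 for N9 and 4.25 for T1, at -2.005 with all 7 samples and 0.80 without N8 and N9. The number of lower calls in the 6 lists, 5 with all samples, was 0 without N8, without T10 and without both N8 and N9. It was 1 without N9, 1 without T1 (another gene than the 5), 2 without T3, 17 without N1 and 15 without N3. The lower calls over all genes moved too, from 483 with all samples to 1145 without N1 and 561 without N3. They were 132 without N8, 126 without T10 and 103 without both N8 and N9. Without N9, T1 and T3 they were 408, 602 and 189.

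**Figure D5:**
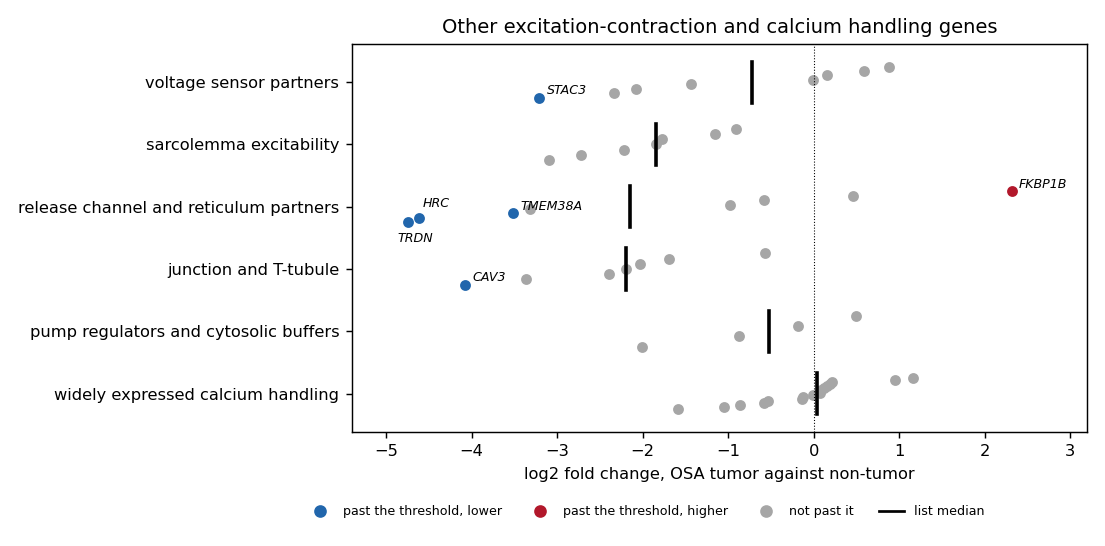
log2 fold change of OSA tumor against non-tumor for the 50 tested genes of the 6 lists, 1 point per gene, with the median of each list as a bar; called genes are coloured and named. The medians of the lists of muscle machinery lie left of 0, down to -2.20, although single genes lie right of it, and that of widely expressed calcium handling is 0.03. Genes with a tumor mean under 1 FPKM, such as *CAV3*, *JPH2*, *SYPL2* and *SPEG*, passed the filter by their non-tumor levels, so nothing is read from the medians of the muscle lists.

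The list of widely expressed calcium handling, written by role, had log2 fold changes on both sides of 0. Of 16 tested genes for widely expressed calcium handling, 0 were called, 8 were negative and 8 positive, and the median was 0.03, beside 6.86% called and a median of -0.02 over all genes tested. The difference from the muscle lists was not tested. Farthest from 0 were *STIM1*, the calcium sensor of the reticulum, at -1.58 (standard error 0.812), the chaperone *CALR* at 1.16 (0.621), the exchanger *SLC8A3* at -1.05 (1.18) and the reticulum channel *TMCO1* at 0.95 (0.541). *STIM1* was highest where muscle RNA was, at 63.8 FPKM for N8 and 87.7 for N9 against 6.38 to 17.9 FPKM in the other samples. *CALR* was higher in every tumor sample than in every non-tumor sample, by a small margin. *ITPR1* was at -0.01 (standard error 0.465), *ITPR2* at 0.21 (0.537) and *ITPR3* at 0.19 (0.485), and the plasma membrane pumps *ATP2B1* and *ATP2B4* at -0.14 (0.563) and 0.09 (0.614). The sign of *ITPR1* and *ATP2B1* turned when the FPKM of all samples were brought to 1 common sum.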

How the data were processed

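RNA from 4 non-tumor bone and 3 OSA samples was sequenced on an Illumina HiSeq platform with stranded, paired-end libraries. After trimming (Trim Galore), the authors used Tophat2 for alignment to the CanFam3.1 genome with its Ensembl genes and deposited FPKM per gene and sample from Cufflinks/Cuffdiff; versions, strand setting and scaling between libraries are not given in the sources used here. Gene intervals, with 1 added to each start, were taken from their comparison table, whose group FPKM, fold changes, test statistics, p-values and q-values were not used. Some intervals cover several genes.

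All 7 FPKM columns were used as log2(FPKM + 1). The 13507 of 24580 genes whose mean over the samples reached 1 FPKM were compared by limma 3.58.1 in R 4.3.3 with a mean-variance trend; a call needed a log2 fold change of 1 or more in either direction and an unadjusted p under 0.05, and adjusted p-values are Benjamini-Hochberg over all tested genes. The fit was tested on simulated data. Tables and figures were made in Python 3.11.15 with numpy 2.4.6, pandas 2.3.3 and matplotlib 3.10.9. The members and the lists of pathway genes (6) and cell type markers (8) were chosen with earlier results of these data known. The genes named are the members, *ACTA1*, called genes and set partners of the lists, and the 3 genes nearest to *RYR1*, *ATP2A1*, *ATP2A2*, *ATP2A3* and *RYR3*, of which 1 is not reported here; *SLN* and the others not listed have no value. Alternatives were a pseudocount of 0.1, other filters, FPKM rescaled by sum or median ratio, the sample number as a replicate block and each sample left out, with the tested genes kept. Replicates are tissue pieces, and the labels do not say that they came from separate dogs.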

Additional observations from a re-analysis of the deposited data

How the results depend on the processing

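No alternative turned the sign of any of the 10 genes, but with the fixed replicate block described below *ATP2A2* was at -0.0074 in place of -2.75 and the median of the 10 genes at -0.80 in place of -3.05. Of all genes, 926 were called, from 319 without N8 to 1997 without N1; of the 10 genes 6, from 0 to 9; and of the other calcium genes 5 were called lower, from 0 to 17. Without the filter 1 of the 10 genes (*ATP2A3*) and 3 others were called lower, and rescaling to the same sum gave 12 others lower. *FKBP1B* was called higher in both. N1 and T1, and N3 and T3, share a number; the labels call the bone matched but do not say that the number marks 1 dog. With that number as a fixed replicate block over these 4 samples, 241 genes were called, 0 of the 10 and 0 of the others (*FKBP1B* at 2.28 was no longer called). As a random replicate block over all 7 samples it gave 1062 calls. Among them were 2 of the 10 (*RYR1* and *ATP2A3*) and 3 of the others lower (*TRDN*, *TMEM38A* and *CAV3*), with *FKBP1B* higher. Without N8 and N9, 184 genes were called, 0 of the 10 and 0 of the others lower, and the muscle genes' median lay -0.45 from *ATP2A2*; with 1 sample left out this was -2.15 to -0.88. The ratio of *RYR1* to *ACTA1* spanned 1.78- to 2.745-fold with 1 non-tumor sample left out. Signs turned in *PLN*, at -2.005 with all samples, and in genes near 0. With the fixed block *PLN* was at 1.20, *ITPR3* at -0.19, *ATP2B1* at 0.23 and *ATP2B4* at -0.20 (-0.0027 with the random block). Rescaled to the same sum, *ITPR1* was at 0.11 and *ATP2B1* at 0.0496. Without N8 and N9, *PLN* was at 0.80, *ITPR3* at -0.10 and *ATP2B1* at 0.24. Leaving out 1 sample gave -0.18 to 0.23 for *ITPR1*, -0.12 to 0.49 for *ITPR2*, -0.33 to 0.30 for *ATP2B1* and -0.26 to 0.65 for *ATP2B4*. The cause was not tested. Levels under about 0.1 FPKM rest on few fragments.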

Other observations

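Other cell types also differed between the samples that carry the muscle genes. Of 6 endothelial markers, 2 were lower in OSA tumor by limma's rule, *CDH5*, the cadherin of vessel walls, and *TIE1*, beside 3.58% of all genes tested and with 0 adjusted p under 0.05; the summed level was 317 FPKM in N9, 79.1 to 106 FPKM in N1, N3 and N8, 104 FPKM in T1 and 22.8 to 29.1 FPKM in T3 and T10. T1 was thus like the non-tumor samples in these genes. Of the 4 smooth muscle and pericyte markers listed, 0 were called, and their sum was 128 FPKM in N9 against 12.5 to 57.5 FPKM elsewhere, of which the pericyte gene *RGS5* made 104 FPKM in N9. Of 5 macrophage markers tested 0 were called, with sums of 648 FPKM in N3, 579 in N8 and 523 in T1 but 46.7 in N9. In T1, 400 FPKM of it was *CD68*, whose interval holds 17 listed genes, and *C1QA*, at 32.3 FPKM there, was at 31.4 in N1, 278 in N3 and 287 in N8. The T lymphocyte markers (0 of 5 tested called) summed to 70.5 FPKM in N3, 19.6 in N8 and 17.5 in T10, and to 2.13 to 6.79 FPKM in the other 4 samples. Of the osteoblast, B lymphocyte and megakaryocyte and platelet markers, 0 were called as well, and of the 27 muscle markers tested 21 were called, all lower; 13 of these had a tumor mean under 1 FPKM and passed the filter by their non-tumor levels, so nothing is read from that count.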
